A study of Zea mays with 15 samples.

Results

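The ARF7 peak list was compared with the lists of the 6 other clade B AUXIN RESPONSE FACTORS (ARFs), namely ARF10, ARF13, ARF25, ARF14, ARF36 and ARF39. The ARF7 list held 29361 peaks of 386300 in all 14 lists, and the 6 other lists held 150034 between them. Every ARF7 peak was placed by the number of these 6 lists, from 0 to 6, that had a peak at the same position. Peaks of different lists counted as shared where at least 50% of each overlapped the other, so that the summits of such peaks, all 201 bp wide, lie no more than 100 bp apart. Each comparison was made with the deposited lists and again after each list was cut to its 7520 strongest peaks by signal (equal list sizes).

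DAP-seq tests where a purified protein binds naked genomic DNA in vitro. The genomic DNA came from ears of 1 to 3 cm of the maize inbred B73. Each ARF was a GST fusion purified from E. coli, with 1 library per ARF, and the GST-HALO control library that served as background in peak calling used a protein made in a wheat germ system. The proteins were ARF7 (GRMZM2G475263), ARF10 (GRMZM2G338259), ARF13 (GRMZM2G378580), ARF25 (GRMZM2G116557), ARF14 (GRMZM2G137413), ARF36 (GRMZM2G702026) and ARF39 (GRMZM2G017187), and 7 clade A ARFs served as a further readout. With 1 library per ARF there was no replicate check and no test between ARFs, so every difference below is a difference between lists. Naked DNA shows neither chromatin nor which ARFs meet in the same cell.

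ARFs are plant transcription factors of the auxin response. They bind short DNA elements that contain TGTC, often as pairs of neighbouring elements bound by ARF dimers. Clade A ARFs are mostly activators of auxin-regulated genes, while clade B ARFs are mostly thought to repress transcription. The study divides the clade B ARFs used here into ARF7 on its own, a sub-clade with ARF10, ARF13 and ARF25, and a sub-clade with ARF14, ARF36 and ARF39. These clades come from the study and not from the sample labels.

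The lists of the others held 33529 peaks for ARF10, 18340 for ARF13, 38272 for ARF25, 28072 for ARF14, 21647 for ARF36 and 10174 for ARF39, so the ARF7 list was of intermediate length. Signals are read depths given by the peak caller, and no scaling between libraries is stated, so they are compared within a list or by rank. In the ARF7 list they ran from 19 to 500 with a median of 41.4. The sequencing depth behind these 7 lists is unknown here, and list length can move with depth. Intervals are 95% Wilson intervals that cover counting error over peaks only, since PCR copies carried no molecular identifiers and nearby peaks depend on each other. At the cutoff of the equal lists, the last ARF7 peak inside and the first one outside both had a signal of 61.

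As a check of the clade, ARF7 was first compared with every list at equal size, taking the mean of the shares of both lists in a pair. ARF7 shared between 42.5% (with ARF10) and 59.0% (with ARF14) of peaks with the other clade B lists. With the 7 clade A lists it shared between 9.01% (ARF18) and 14.1% (ARF4). The ARF7 list was thus nearer to each clade B list than to any clade A list. It was also the most distant of the clade B lists. The 6 pairs with ARF7 had a median of 47.2%, against 63.9% for the 9 pairs that cross the other sub-clades (58.6% to 68.2%) and 77.8% for the 6 pairs within a sub-clade (70.5% to 83.3%). The highest ARF7 pair, with ARF14, lay just above the lowest crossing pair, ARF10 with ARF14.

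ARF7 peaks fell mainly at the ends of the scale. In the deposited lists, 9048 ARF7 peaks were in none of the 6 other lists, which is 30.8% (30.3% to 31.3%). The same share of the other lists, each set against ARF7 and its 5 other relatives, ran from 1.05% in ARF13 to 17.7% in ARF25, and was 10.5% over all their peaks. At the other end 6545 ARF7 peaks, or 22.3% (21.8% to 22.8%), were in all 6 other lists. For the others this share ran from 16.6% in ARF25 to 59.6% in the short ARF39 list, with 24.7% over all their peaks. ARF7 therefore stood apart from its relatives by its peaks without a partner. Peaks common to all are nearly the same positions from every list, so their share mainly follows list length. That share does not compare ARF7 with its relatives.

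The classes between held fewer peaks. ARF7 shared 3452 peaks (11.8%) with 1 other list, 2619 (8.92%) with 2, 2293 (7.81%) with 3, 2188 (7.45%) with 4 and 3216 (11.0%) with 5. Few summits lay near the overlap threshold. Between 2 (ARF39) and 10 (ARF10) ARF7 peaks had their partner summit at exactly 100 bp, the last distance inside, and between 0 (ARF25) and 7 (ARF10 and ARF36) at 101 bp, the first outside.

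With equal list sizes the share of ARF7 peaks in none of the other lists stayed close to the 30.8% of the deposited lists. Of 7520 ARF7 peaks, 2408 were in none of the 6 other lists, or 32.0% (31.0% to 33.1%). The others ranged from 5.96% (ARF36) to 12.2% (ARF39), with 7.62% over all their peaks. The share in all 6 others was 34.4% for ARF7 and between 33.4% (ARF13) and 35.3% (ARF14) for the others, 34.0% over all their peaks. A position common to all lists is counted from every list, so at equal size this share is bound to be nearly alike. It does not compare ARF7 with its relatives. ARF7 lay farthest below the others at 5 lists, which held 5.01% of ARF7 peaks and 16.4% (ARF39) to 17.7% (ARF36) of peaks of the others.

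**Figure D1:**
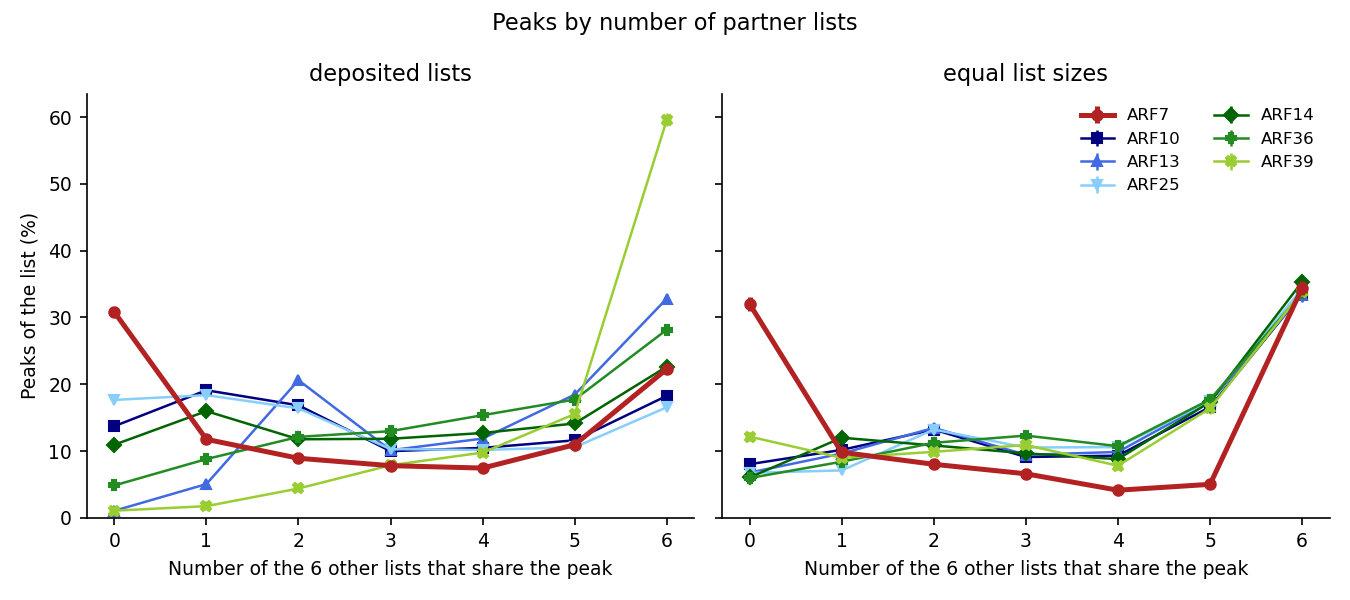
Percent of each list's peaks (vertical axis) against the number of the 6 other lists that share the peak (horizontal axis), for deposited lists on the left and equal list sizes on the right. Points are lists and bars are 95% Wilson intervals. The ARF7 line starts at 30.8% and 32.0%, above every other list. With equal sizes it meets them at 6 lists, where the same common positions are counted from every list.

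Each of the others had 2 members of its own sub-clade among its partners, whereas ARF7 had none. Against a sub-clade that neither belonged to, the contrast was smaller. With equal sizes, 51.3% of ARF7 peaks were in none of the ARF10, ARF13 and ARF25 lists, against 24.8% (ARF36) to 30.9% (ARF14) of peaks in the ARF14, ARF36 and ARF39 lists. Against ARF14, ARF36 and ARF39, 34.3% of ARF7 peaks had no partner, and 20.9% (ARF25) to 26.6% (ARF10) of peaks in the ARF10, ARF13 and ARF25 lists. ARF7 remained highest in both comparisons.

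In the deposited lists this held against only one of the sub-clades. Against ARF10, ARF13 and ARF25, 45.3% of ARF7 peaks had no partner, and 6.95% (ARF39) to 29.8% (ARF14) of the other sub-clade. Against ARF14, ARF36 and ARF39, the share was 36.5% for ARF7, 27.6% for ARF13, 44.9% for ARF10 and 45.5% for ARF25. The long ARF10 and ARF25 lists thus had more peaks without a partner in that sub-clade than ARF7 did.

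ARF7 peaks without a partner were mostly weak. Their median signal was 34, and the median was 39.2, 40.9, 42.8, 46 and 44.1 for peaks in 1 to 5 other lists and 65.9 for peaks in all 6. On a scale where 0 is the weakest and 100 the strongest peak of the ARF7 list, the median rank was 32.1 for peaks in none and 78.0 for peaks in all 6. Signal and sharing thus went together along the list. The list was divided by signal into 10 bins of 2936 or 2937 peaks. In the weakest bin 51.2% of ARF7 peaks were in none of the other lists and 8.51% in all 6. In the strongest bin 2.86% were in none (84 peaks) and 63.0% in all 6 (1849 peaks). In the weakest bins of the other lists the share in none ran from 3.54% (ARF39) to 52.0% (ARF25). ARF7 was thus not the highest at the weak end.

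**Figure D2:**
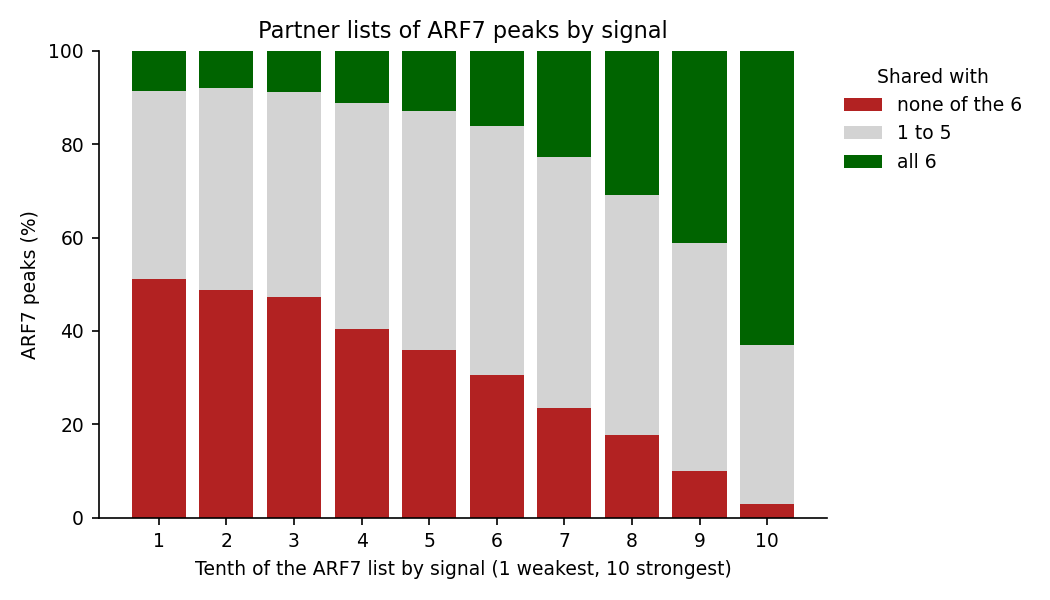
Percent of ARF7 peaks (vertical axis) shared with none, 1 to 5 or all 6 of the other lists, in 10 bins of the ARF7 list by signal from weakest to strongest (horizontal axis). The part shared with none goes down to 2.86% and the part shared with all 6 goes up to 63.0% in the strongest bin.

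Strong ARF7 peaks without any partner were few, but the other lists had almost none. The strongest bin held 84 such peaks in ARF7, while in the same bin of the other lists there was 1 in ARF13 and 0 in ARF10, ARF25, ARF14, ARF36 and ARF39. Peaks in all other lists made up 63.0% of the strongest ARF7 bin and between 84.8% (ARF10) and 99.2% (ARF39) of the strongest bins of the others. The strongest ARF7 peaks were therefore less often common to all 7 lists than those of any relative.

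Many ARF7 peaks without a partner at equal size had a weaker one in the deposited lists. When the 7520 strongest ARF7 peaks were set against the deposited lists of the others, 621 had no partner, or 8.26% (7.66% to 8.90%). The same count was 3 (0.0399%) for ARF13, 5 for ARF25, 5 for ARF36, 8 for ARF14, 42 for ARF39 and 45 (0.598%) for ARF10. In these counts too, every list but ARF7 had members of its own sub-clade among its partners. Peaks in all 6 others were 47.9% of the strongest ARF7 peaks and 58.9% (ARF10) to 70.7% (ARF39) of the strongest peaks of the others. Of the 2408 ARF7 peaks without an equal-size partner, 1787 (74.2%) had a weaker peak in at least 1 deposited list. Their best partner had a median rank of 52.8 in its own list, and the median number of lists was 2. These are positions that ARF7 and a relative both had, at different places in the order of signal.

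The partnerless ARF7 peaks were separate positions and not near misses of the overlap rule. Of the 9048, 199 (2.2%) had a summit of another list within 200 bp and 721 (7.97%) within 1 kb. The median distance to the nearest summit of the 6 lists was 10.1 kb.

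The 5 strongest of them are given with their positions in B73 RefGen version 3. A peak at chr3:229933842-229934042 had a signal of 207 and a rank of 99.4 in the ARF7 list, with the nearest summit of the other lists 6.95 kb away. A peak at chr6:38746267-38746467 had a signal of 176, with the nearest such summit 54.1 kb away. A peak at chr1:34682745-34682945 had a signal of 172 and its nearest such summit at 17.4 kb. The remaining pair both had a signal of 148. The one at chr6:122732849-122733049 lay 15.7 kb from the nearest summit of the 6 lists, and the one at chr7:21760433-21760633 lay 22.6 kb away. Of these 5, the peak at chr6:122732849-122733049 was also in a clade A list, that of ARF4, and the other 4 were in none of the 14 lists besides ARF7.

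The 5 strongest ARF7 peaks found in all 6 other lists had higher signals, and most stood high in the other lists too. The strongest, at chr6:69780588-69780788, had an ARF7 signal of 500, the highest of the list, and ranks between 96.0 (ARF39) and 99.97 (ARF14) in the others. At chr7:4552620-4552820 the ARF7 signal was 463 and the ranks of the others ran from 99.78 (ARF14) to 100 (ARF13 and ARF25). At chr3:179473083-179473283 the ARF7 signal was 460. There ARF14 and ARF36 had ranks of 99.6 and 99.7, against 93.4 in ARF10, 87.5 in ARF13, 88.2 in ARF25 and 55.8 in ARF39. Common peaks tend to rank lower in a shorter list, and the ARF39 list was the shortest. The peak at chr7:4806889-4807089 showed the reverse order. Its ARF7 signal was 430.2, with ranks of 97.5 in ARF10, 92.4 in ARF13 and 97.5 in ARF25, and lower ranks of 73.5 in ARF14, 62.6 in ARF36 and 78.0 in ARF39. At chr5:216256972-216257172 the ARF7 signal was 391, and the ranks of the others ran from 66.6 (ARF36) to 99.7 (ARF10). All 5 had peaks in 2 to 7 clade A lists. No gene is named for these positions, because no annotation of that build was used here.

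ARF7 was nearer to ARF14, ARF36 and ARF39 than to ARF10, ARF13 and ARF25. With equal sizes, ARF7 shared 58.4% of its peaks with ARF14, 54.0% with ARF36 and 50.2% with ARF39. It shared 44.6% with ARF25, 43.5% with ARF13 and 43.0% with ARF10. The intervals of any member of the ARF14, ARF36 and ARF39 sub-clade and any member of the other did not overlap. The intervals of ARF25, ARF13 and ARF10 overlapped one another.

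The order was another in the deposited lists, which differ in length. There ARF7 shared 60.6% of its peaks with ARF14, 50.3% with ARF25, 49.0% with ARF36, 47.5% with ARF10, 35.6% with ARF13 and 28.4% with ARF39, whose list was the shortest. Seen from the other side, ARF7 held 76.8% of ARF39 peaks, 63.4% of ARF36 peaks, 62.2% of ARF14 peaks, 53.4% of ARF13 peaks, 40.1% of ARF10 peaks and 38.0% of ARF25 peaks. ARF14 was the highest by the first share and the order of the sub-clades was clear only by the second.

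The strongest peaks were mostly found by the partner at some signal. Of the 7520 strongest ARF7 peaks, 88.3% had a peak in the deposited ARF14 list, 77.9% in ARF36, 74.8% in ARF25, 72.3% in ARF10, 59.9% in ARF13 and 54.6% in ARF39. Of the 7520 strongest partner peaks, the deposited ARF7 list held 92.8% for ARF14, 88.5% for ARF36, 83.4% for ARF39, 82.2% for ARF13, 81.6% for ARF25 and 78.7% for ARF10. In this direction, where the same ARF7 list was searched each time, every member of the ARF14, ARF36 and ARF39 sub-clade was above every member of the other. The intervals of ARF39 (82.6% to 84.3%) and ARF13 (81.3% to 83.0%) overlapped, however. The 7520 strongest were also most of the 10174 ARF39 peaks but a small part of the 38272 ARF25 peaks.

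**Figure D3:**
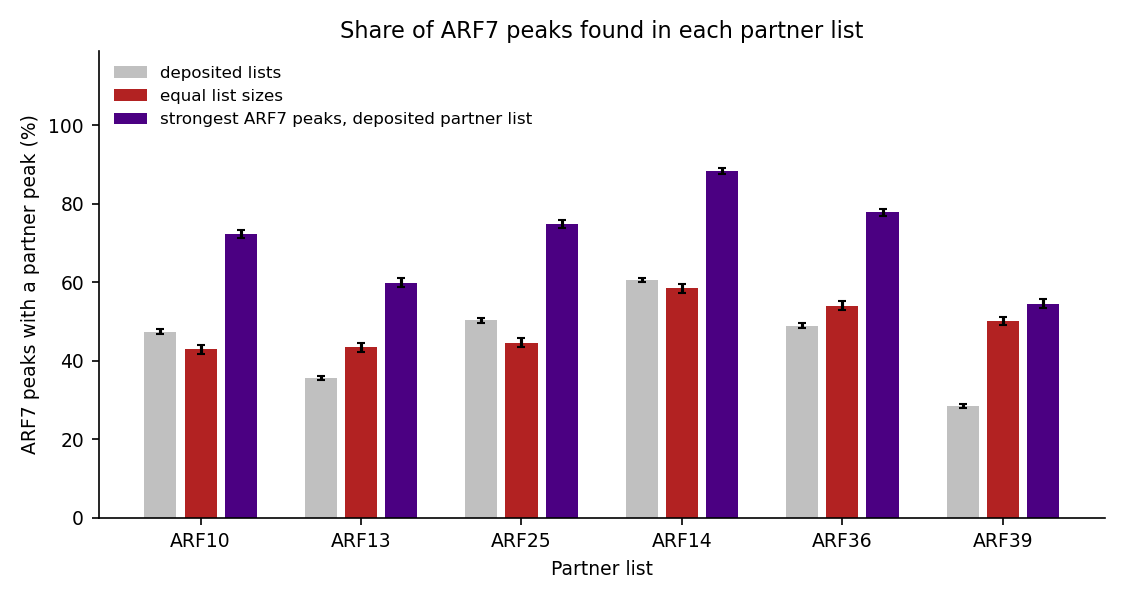
Percent of ARF7 peaks with a partner peak (vertical axis) in each of the 6 other lists (horizontal axis). The bars for each partner are deposited lists, equal list sizes, and the 7520 strongest ARF7 peaks against the deposited partner list, with 95% Wilson intervals. At equal size the shares with ARF14, ARF36 and ARF39 are 50.2% to 58.4% and those with ARF10, ARF13 and ARF25 are 43.0% to 44.6%.

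Counted peak by peak, more ARF7 peaks had partners in the ARF14, ARF36 and ARF39 sub-clade alone than in the other alone. With equal sizes, 1450 ARF7 peaks (19.3%) had partners only among ARF14, ARF36 and ARF39, and 172 (2.29%) only among ARF10, ARF13 and ARF25, while 3490 (46.4%) had partners in both sub-clades. In the deposited lists these counts were 4256 (14.5%), 1670 (5.69%) and 14387 (49.0%). The difference was thus wider at equal size. Counts of peaks with a whole sub-clade and none of the other were close in the deposited lists. There 279 (0.95%, 0.846% to 1.07%) had ARF14, ARF36 and ARF39 alone and 330 (1.12%, 1.01% to 1.25%) had ARF10, ARF13 and ARF25 alone, with overlapping intervals. The sites available differed widely, with 390 merged sites of the first kind and 3843 of the second. ARF7 was at 69.2% of the first and 9.19% of the second. At equal size the peak counts were 320 (4.26%) and 41 (0.545%). Of the 3452 ARF7 peaks with 1 partner, 2415 (70.0%) had ARF14, 421 (12.2%) ARF10, 322 (9.33%) ARF25 and 250 (7.24%) ARF36. Of the 2619 with 2 partners, 1197 (45.7%) had ARF14 and ARF36, and 502 (19.2%) had ARF10 and ARF25. Of the 2293 with 3 partners, 655 (28.6%) had ARF14, ARF25 and ARF36, the most frequent combination, and 330 (14.4%) had ARF10, ARF13 and ARF25. Of the 3216 with 5 partners, 2437 (75.8%) lacked ARF39, whose list was the shortest.

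Signals at shared peaks ranked less alike between ARF7 and its relatives than among the relatives. As a description across shared peaks, Spearman's rho with ARF7 was 0.49 for ARF14 (17786 peaks), 0.45 for ARF36 (14379), 0.49 for ARF39 (8336), 0.33 for ARF10 (13937), 0.35 for ARF13 (10456) and 0.34 for ARF25 (14777). Among the 6 others, the 30 values, each pair counted from both sides, ran from 0.56 to 0.89 with a median of 0.65. The points share libraries and the mappability of the region, and peaks are not independent. The highest ARF7 value lay below the lowest of the others.

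Summits of ARF7 and its relatives were offset by a fixed number of bases. The most frequent distance from an ARF7 summit was 9 bp to ARF10 (4068 of 13937 shared peaks, 29.2%), 8 bp to ARF13 (36.6%), 9 bp to ARF25 (24.9%), 4 bp to ARF14 (19.4%), 5 bp to ARF36 (28.2%) and 4 bp to ARF39 (33.6%). The offset was thus 8 to 9 bp to the ARF10, ARF13 and ARF25 sub-clade and 4 to 5 bp to the other. It went both ways along the chromosome about equally, with the ARF10 summit to the left of that of ARF7 at 2069 peaks and to the right at 1999. Among the 15 pairs of the 6 others the most frequent distance was 0 to 5 bp, and it held a median of 46.5% of shared peaks, against 28.7% for the 6 pairs with ARF7. Summits within 20 bp of each other made up 64.4% to 74.4% of the peaks ARF7 shared and 76.3% to 87.7% among the others. The peak caller places a summit with the help of short sequence words learned separately for each library, and the part this plays in the offsets was not tested.

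**Figure D4:**
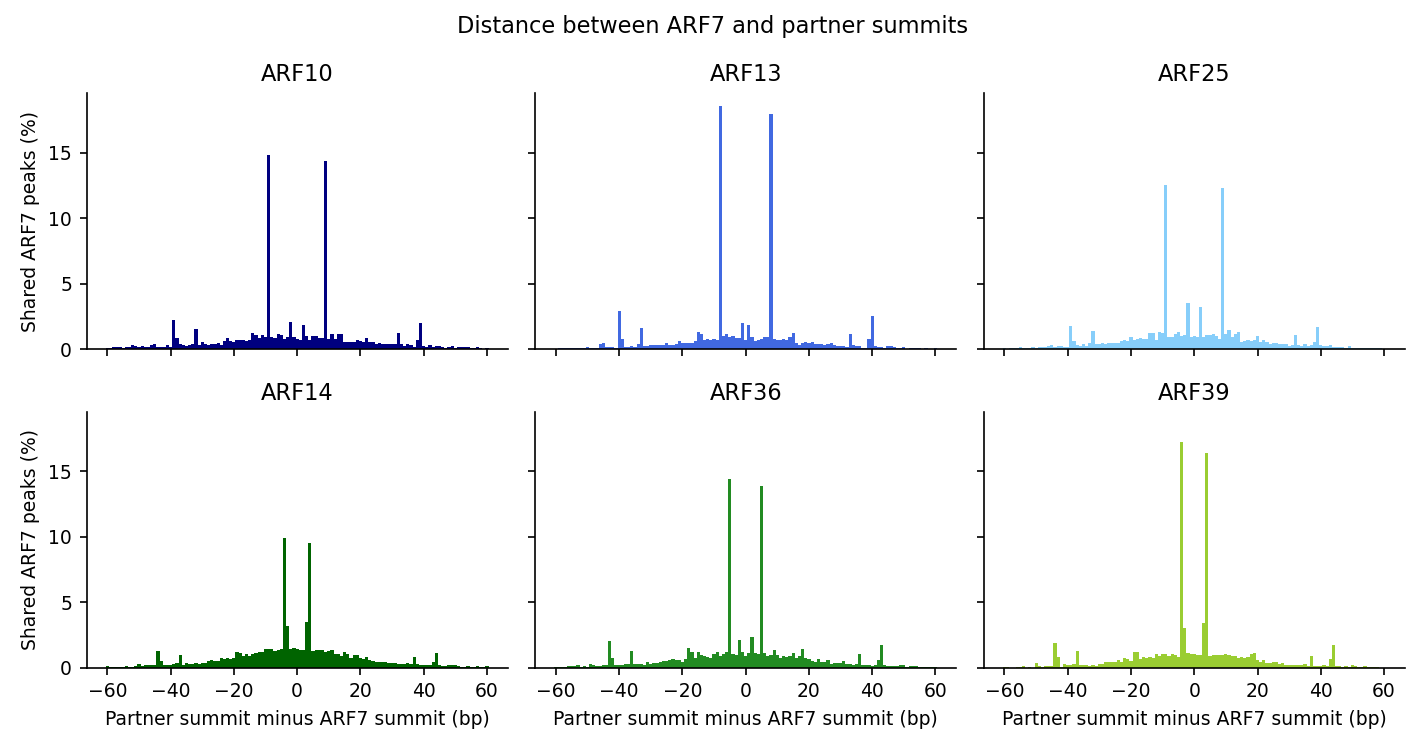
Percent of shared ARF7 peaks (vertical axis) by distance of the partner summit from the ARF7 summit in bp (horizontal axis, negative to the left), with a panel for each of the 6 other lists. A pair of spikes stands at 9, 8 and 9 bp on both sides for ARF10, ARF13 and ARF25 and at 4, 5 and 4 bp for ARF14, ARF36 and ARF39. Smaller spikes stand 32 to 37 bp and 39 to 44 bp away.

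The fixed offset belonged mainly to positions with many partners. With ARF10, 4.75% of shared ARF7 peaks were at 9 bp when ARF10 was the only partner, and 5.46%, 8.85%, 9.22%, 28.6% and 43.3% with 2 to 6 partners. With ARF14, the share at 4 bp was 4.02% with ARF14 alone, 4.32%, 4.51%, 6.03% and 20.4% with 2 to 5 partners and 37.1% with all 6. The share stayed low up to 4 partners and then went up steeply. Among peaks in all 6 lists it also moved with signal, from 25.9% at 9 bp from ARF10 in the weakest of 5 signal bins of the ARF7 list to 47.2% and 45.6% in the strongest pair of bins. Even in that weakest bin it was above the shares seen with 1 to 4 partners.

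A second, smaller set of distances lay farther out. It stood at 39 bp from ARF10 (587 ARF7 peaks) and ARF25 (511), 40 bp from ARF13 (575), 43 bp from ARF36 (538) and 44 bp from ARF14 (429) and ARF39 (303). Other spikes lay at 32 bp from ARF10 and ARF25, 33 bp from ARF13, 36 bp from ARF36 and 37 bp from ARF14 and ARF39. Distances close in, such as 2 bp from ARF25 (992 ARF7 peaks), could be more frequent than this set. Neither was followed further. For each partner the first and the second distance add up to 48 bp. Pairs of ARF7 summits at that same spacing were found within the ARF7 list. In 472 ARF7 peaks (1.61%) the nearest other ARF7 summit was 47 or 48 bp away, against 4 to 24 peaks (0.0179% to 0.0855%) in each of the 6 other lists. Of these 472 peaks, 434 were in all 6 other lists, where they made up 6.63% of ARF7 peaks, and 4 were in none. They were weaker than the rest of that class, with a median signal of 48.8 against 67. Of the ARF7 peaks at the second distance, between 25.4% (ARF10) and 44.6% (ARF39) belonged to such a pair, against 5.46% (ARF10) to 7.11% (ARF39) of those at the first. These were the most frequent spacings of neighbouring ARF7 summits, ahead of 99 bp (72 pairs) and 41 bp (55 pairs). The spacing of 48 bp and these distances were chosen for description after the values were seen. The 47 and 48 bp spacings were picked as the most frequent in the ARF7 list, so the contrast with the other lists favours ARF7. The most frequent spacings of the other lists were not counted.

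Close neighbours of any spacing followed the same order. An ARF7 peak overlapped another ARF7 peak in 2.53% of the class in no other list (229 peaks) and in 18.6% of the class in all 6 (1215 peaks). Over the whole list this share was 8.59% for ARF7, and between 1.52% (ARF13) and 6.84% (ARF14) for the others.

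The clade A lists gave a readout that the classes did not use. A peak of at least 1 of the 7 clade A lists lay at 31.8% of all ARF7 peaks. In the class in no other clade B list it was 9.12% (825 of 9048), and in the class in all 6 it was 61.4% (4019 of 6545). Between them the share was 18.5%, 30.9%, 41.0%, 43.8% and 35.9% for 1 to 5 partners, so it did not go up at every step. ARF7 peaks that no relative had were thus seldom clade A peaks either, and 8223 of them, 28.0% of the ARF7 list, were in no other list of the 14. Of the 825 that were in a clade A list, 388 (47.0%) were in 1 such list, and 285 of those were in ARF34 alone, the longest list of the series.

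The gap was present at every level of signal. With the ARF7 list cut into 5 bins by signal, the clade A share of partnerless ARF7 peaks was 9.69%, 9.49%, 8.56%, 8.34% and 7.61% from the weakest to the strongest bin. For ARF7 peaks in all 6 other lists it was 52.0%, 54.2%, 51.0%, 52.0% and 72.0%. The classes were far apart in every bin. With equal sizes of all 14 lists the clade A share was 22.2% over the ARF7 list, 6.98% for partnerless peaks and 32.1% for peaks in all 6. For 1 to 5 partners it was 14.6%, 24.0%, 30.8%, 39.2% and 37.1%. The class in all 6 was thus not the highest at equal size, though its interval overlapped that of 5 partners.

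Partnerless peaks of some relatives differed from those of ARF7 in this. In the deposited lists a clade A peak lay at 9.12% of partnerless ARF7 peaks, against 48.9% in ARF10 (2251 of 4600), 56.9% in ARF39 (62 of 109), 26.8% in ARF36, 15.5% in ARF13, 15.4% in ARF14 and 14.8% in ARF25. With equal sizes ARF7 had 6.98%, against 47.4% in ARF10, 40.2% in ARF39, 19.0% in ARF36, 11.5% in ARF25, 7.25% in ARF14 and 3.14% in ARF13. ARF7 was the lowest in the deposited lists, while at equal size ARF13 was lower and the interval of ARF14 overlapped that of ARF7. For peaks in all 7 clade B lists the clade A share was nearly the same from every list, 61.4% from ARF7 and 61.3% (ARF13) to 62.3% (ARF25) from the others. These are largely the same positions counted from each list.

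Position along the chromosomes, in the deposited lists, separated the end classes little. Of ARF7 summits, 20.5% lay in the outer 20% of the chromosomes both for peaks in none and for peaks in all 6 of the other lists, and the share ran from 19.4% with 5 partners to 23.4% with 4. At equal size the share was 21.6% (20.0% to 23.2%) for peaks in none and 17.5% (16.1% to 19.0%) for peaks in all 6, so the classes were apart there. With 90% reciprocal overlap it was 20.6% for peaks in none and 18.6% for peaks in all 6. On each of the 10 chromosomes, the shares of the 2 classes in the deposited lists differed by at most 1.31 percentage points, on chromosome 1.

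Sites that ARF7 lacked were counted after merging overlapping peaks of the 7 clade B lists. The merged lists gave 62073 sites, 8760 of which had ARF7 alone and 53313 at least 1 of the 6 others. ARF7 lacked 34034 of these 53313, or 63.8% (63.4% to 64.2%), and 15229 of them (44.7%) were sites of a single list. The more lists a site had, the more often ARF7 was there. ARF7 lacked 82.2%, 77.2%, 70.9%, 51.4% and 36.0% of sites with 1 to 5 of the other lists, and 11.9% (810 of 6807, 11.2% to 12.7%) of sites with all 6. For the others the share lacked at 6 lists ran from 0.200% in ARF25 to 28.2% in the short ARF39 list.

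At equal size ARF7 stood apart at the sites that its relatives had in common. Of 3478 sites in all 6 other lists, ARF7 lacked 969, or 27.9% (26.4% to 29.4%). The others lacked between 0.712% (ARF36) and 4.71% (ARF39) of the sites in all of their 6 partner lists. At sites with 5 partner lists ARF7 lacked 61.9%, and the others 7.73% (ARF36) to 21.6% (ARF39). At sites with 1 list the order was turned round, with 82.3% for ARF7 and 85.7% (ARF14) to 90.8% (ARF25) for the others. The 1-list sites of each other list include the 2394 sites of ARF7 alone, which that list lacks by definition. This order is therefore partly set by how the sites were counted.

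Here too each of the others had members of its own sub-clade among its partners. At equal size ARF7 lacked 47.3% of the 5417 sites held jointly by ARF10, ARF13 and ARF25, and the lists of the ARF14, ARF36 and ARF39 sub-clade lacked 19.6% (ARF36) to 27.0% (ARF39). ARF7 lacked 32.8% of the 4689 sites held jointly by ARF14, ARF36 and ARF39, and the lists of the other sub-clade lacked 16.1% (ARF25) to 21.3% (ARF10). In the deposited lists these shares were 43.1% for ARF7 and 29.7% (ARF14) to 55.1% (ARF39) for the first comparison, and 15.8% for ARF7 and 5.66% (ARF25) to 19.2% (ARF13) for the second. ARF7 was thus the highest at equal size and within the range of the others in the deposited lists.

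**Figure D5:**
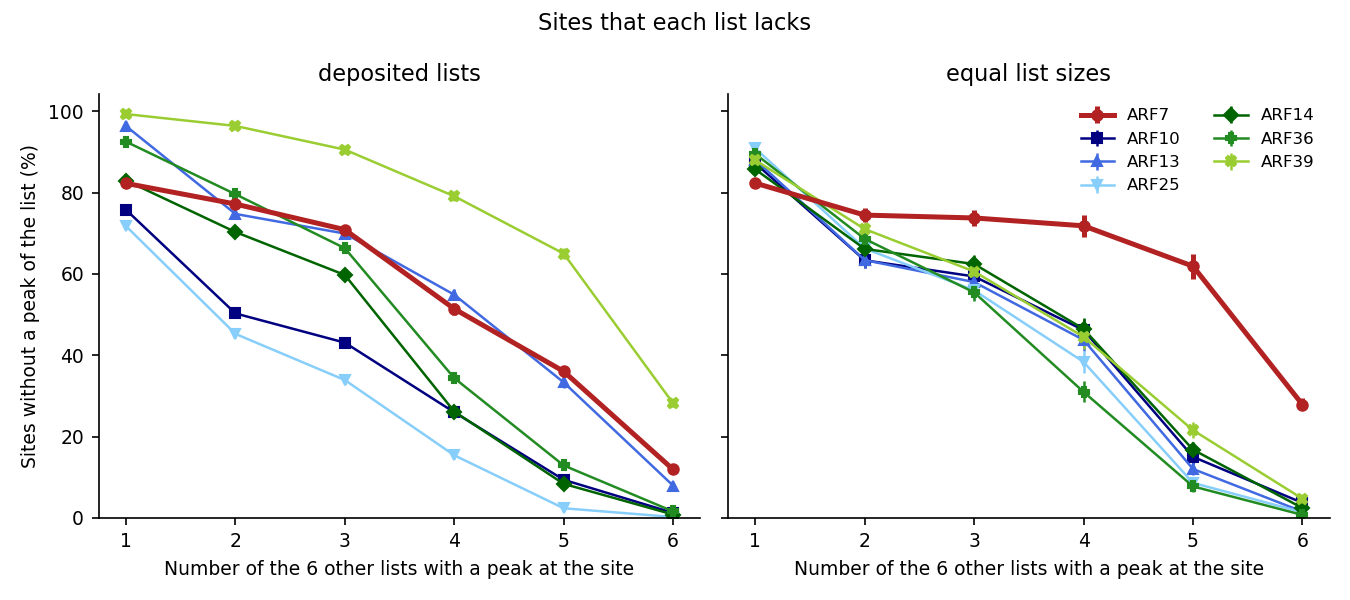
Percent of merged sites without a peak of the list (vertical axis) against the number of its 6 partner lists at the site (horizontal axis), for deposited lists on the left and equal list sizes on the right, with 95% Wilson intervals. With equal sizes ARF7 lacks 61.9% of sites with 5 partner lists and 27.9% of sites with 6, above every other list at both.

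Most of the sites of all 6 lists that ARF7 lacked at equal size had an ARF7 peak below the cutoff. Of the 969, 907 (93.6%) had an ARF7 peak in the deposited list and 62 had none. These 907 had a median rank of 62.2 in the ARF7 list, with quartiles of 49.95 and 68.9, where the cutoff of the equal list lay at a rank of 74.6. The corresponding sites of the others were far fewer, with 96 for ARF10, 39 for ARF13, 35 for ARF25, 62 for ARF14, 18 for ARF36 and 124 for ARF39. A weaker peak of their own was at 95 of these for ARF10, 35 for ARF13, 35 for ARF25, 61 for ARF14, 18 for ARF36 and 41 for ARF39.

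Which sub-clade held a site went with the presence of ARF7. In the deposited lists, 3843 sites had ARF10, ARF13 and ARF25 and none of the other sub-clade, and ARF7 was at 353 of them, or 9.19% (8.31% to 10.1%). At 390 sites with ARF14, ARF36 and ARF39 and none of the other sub-clade, ARF7 was at 270, or 69.2% (64.5% to 73.6%). With equal sizes ARF7 was at 41 of 722 sites (5.68%) of the first kind and at 319 of 564 (56.6%) of the second. A site that ARF10, ARF13 and ARF25 bound without the other sub-clade was therefore seldom an ARF7 site at either list size.

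Among sites in all 6 other lists, those that ARF7 lacked had lower ranks. The mean rank of the 6 peaks had a median of 57.0 at the 810 sites lacked and 80.4 at the 5997 sites with ARF7. A clade A peak lay at 57.0% (53.6% to 60.4%) of the sites lacked and at 61.7% (60.5% to 62.9%) of those with ARF7. At equal size the clade A difference was larger, 9.91% (8.18% to 11.9%) of the 969 sites lacked and 31.4% (29.6% to 33.2%) of the 2509 sites with ARF7. The mean ranks there were 82.7 and 91.9, so the sites lacked had lower ranks at equal size as well, and the part of signal in this difference was not tested. At sites of a single list the clade A difference ran the other way. There a clade A peak lay at 27.0% (26.3% to 27.7%) of the 15229 sites lacked and 19.2% (17.9% to 20.6%) of the 3287 sites with ARF7 in the deposited lists, and at 24.97% of the sites lacked and 15.0% of those with ARF7 at equal size.

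The relatives kept their own spacing at sites that ARF7 lacked, though less often. Among ARF10 peaks shared with all of ARF13, ARF25, ARF14, ARF36 and ARF39, the ARF14 summit was 5 bp away at 33.9% of 824 peaks without ARF7 and at 55.0% of 6126 peaks with it. The ARF36 summit was 4 bp away at 60.7% without ARF7 and 69.4% with it. The ARF25 summit was on the same base at 53.0% without ARF7 and 59.9% with it. In none of these 3 comparisons did the intervals overlap.

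The 5 sites of all 6 lists that ARF7 lacked with the highest mean rank in those lists stood high in each of them. The first, at chr1:228121228-228121439, had ranks from 84.0 (ARF14) to 98.5 (ARF25), a mean rank of 93.1 and its nearest ARF7 summit 7.25 kb away. The next, at chr10:16531283-16531491, had ranks from 78.7 (ARF39) to 99.9 (ARF25), and the nearest ARF7 summit was 77.0 kb away. At chr7:108903481-108903702 the mean rank was 89.5 with ARF7 13.4 kb away. At chr2:183247287-183247492 it was 88.6 with ARF7 13.5 kb away, and at chr4:213322774-213322993 it was 88.6 with ARF7 51.7 kb away. The ARF25 rank was the highest of the 6 at each of these sites. Ranks are within a list, and among the relatives common peaks tend to rank higher in a longer one. For peaks in all 6 other lists the median rank was 90.6 in ARF25, the longest of these lists, and 66.7 in ARF39, the shortest. The ARF7 list went against this order, with 78.0 at 29361 peaks, below 80.9 in the ARF13 list of 18340. The ranks of the relatives at these sites therefore do not order the ARFs by binding strength. All 5 had clade A peaks, from 1 list at chr10:16531283-16531491 and chr4:213322774-213322993 to all 7 lists at chr7:108903481-108903702.

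Sites that ARF7 lacked in the deposited lists were more often near the chromosome ends. At sites of a single list, 25.1% (24.4% to 25.8%) of the sites without ARF7 and 20.4% (19.1% to 21.9%) of those with ARF7 were in the outer 20%. At 2 lists the share was 25.2% (24.3% to 26.2%) without ARF7 and 21.9% (20.3% to 23.5%) with it. At 5 lists it was 23.5% (21.6% to 25.6%) without ARF7 and 19.6% (18.2% to 21.0%) with it. At 3 and 4 lists the share was also higher without ARF7, with overlapping intervals. At sites of all 6 lists it was 24.0% (21.1% to 27.0%) without ARF7 and 20.7% (19.7% to 21.7%) with it, where the intervals overlapped. With equal sizes the difference at single-list sites was 24.1% without ARF7 against 16.8% with it, while at sites of 3, 4 and 5 lists the share was lower without ARF7, with overlapping intervals. It was 23.4% without ARF7 and 25.4% with it at 3 lists, 24.0% and 30.7% at 4 lists, and 19.6% and 21.7% at 5 lists.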

How the data were processed

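Per the labels and the study's methods, the authors mapped reads with Bowtie2 2.2.8 to B73 RefGen version 3, kept mapping qualities above 30 and called peaks per ARF with GEM 2.5 against the GST-HALO library at a false discovery limit of 1e-05. The deposited signal of a peak is the value GEM gave it, described by the authors as read depth. No scaling between libraries is stated. The deposited −log10 p-values and q-values were used for the q alternative and ties. The deposited display score was not used. Filtering lowers coverage of repeats. The study left out regions found in all samples and the control, and whether the lists still hold them is not stated. Positions are 1-based.

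Overlaps, merged sites (peaks overlapping by at least 1 bp) and ranks were computed in Python 3.11.15 with pandas 2.3.3, numpy 2.4.6 and scipy 1.17.1, tested on simulated data, and checked against bedtools 2.31.1 in 12 comparisons, which differed by 0 peaks. Equal lists hold as many peaks as the shortest of the 14. The outer 20% is 10% at each chromosome end. Named sites are the 5 strongest ARF7 peaks in none and in all 6 other lists, and the 5 lacked sites of highest mean rank. The members and lists were chosen with earlier results of these data known. Alternatives changed list length, overlap, q limit, close peaks, all-list regions and the partner lists used. Motifs, genes and protein identity were not analysed here.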

Additional observations from a re-analysis of the deposited data

How the results depend on the processing

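The share of ARF7 peaks in none of the 6 other lists (30.8%) was 32.0% with the 7520 strongest peaks of each list, 30.1% with overlap by at least 1 bp, 45.6% with 90% reciprocal overlap, 27.4% with a −log10 q of at least 10, 31.9% with overlapping peaks of a list joined, and 31.4% without sites of all 14 lists. Without 1 partner list it was 32.3% (ARF10), 31.9% (ARF25), 39.0% (ARF14) and 31.7% (ARF36). The share in all 6 (22.3%) was 34.4% with 7520 peaks and 33.6% with 10174, the length of the shortest of the 7 lists, 13.8% with 90% overlap, 25.1% with the stricter q, 21.2% with peaks joined and 20.8% without sites of all 14 lists. The share of sites of all 6 lists that ARF7 lacked (11.9%) was 27.9% with 7520 peaks, 25.4% with 10174, 18.2% with 90% overlap, 14.9% with the stricter q and 12.9% without sites of all 14 lists. Without 1 partner list it was 13.8% (ARF13), 13.8% (ARF14), 12.9% (ARF36) and 19.7% (ARF39). Merging sites at 50% overlap, an alternative chosen after seeing the data, gave 12.0%. Merged sites already used the 1 bp rule, so that alternative was not run for them. Apart from the alternatives' own construction (shorter lists, a tighter rule, fewer partners), causes were not tested. The large moves came from list length, the 90% rule and the ARF14 and ARF39 lists. No paired analysis was possible because each ARF had 1 library. Unknown depth and the lack of a second library limit every difference between lists.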
